A study of Homo sapiens with 6 samples.

Results

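The 986 regions described here carried an E2F7 peak in senescent IMR90 cells with RB knockdown and in growing IMR90 cells, and no listed peak in quiescent IMR90 cells. They were chosen from the peak lists themselves. Peaks of the 3 lists on chromosomes 1 to 22 and X that overlapped by at least 1 bp were merged, and a merged region was kept where it held peaks of the RB knockdown and growing lists and none of the quiescent list. The 986 regions were 1.81% of all merged regions and covered 1.58 Mb. They held 1087 of the 43643 RB knockdown peaks (2.49%) and 1003 of the 9466 growing peaks (10.6%). A region missing from the quiescent list had no call past the caller's cutoff there, which does not show that E2F7 was absent. In the same way, a listed peak is a call past that cutoff and does not by itself show that E2F7 was bound.

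E2F7 is an atypical member of the E2F family that binds DNA without the dimerization partner of the classical E2Fs and represses genes of the cell cycle and DNA replication. RB, the retinoblastoma protein, binds the classical activating E2Fs and holds their targets silent in arrested cells, while E2F7 lacks the sequence that RB binds. The E2F7 gene is itself a target of activating E2Fs. Growing cells express E2F targets as they cycle, quiescent cells keep them off reversibly, and cells in Ras-induced senescence keep them off as part of a lasting arrest in which RB takes part.

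IMR90 is a human fetal lung fibroblast line. The senescent cells had been infected with Ras and an RB hairpin and were collected 4 days after tamoxifen, which switches on the ER-Ras fusion. The labels give no treatment for the quiescent or the growing cells. Each ChIP used 10 µg of E2F7 antibody, and there was 1 library per state, so every comparison is between libraries and carries no replicate error and no test. No peak list of the other labelled samples (senescent cells with an E2F7 hairpin, IgG and input) was analysed here. Peak lists hold no expression values, and neither the RB knockdown nor the cell state could be checked in them. After the caller's duplicate limit the libraries held 23379790 (RB knockdown), 25212239 (quiescent) and 22628990 (growing) tags. One control library served all 3 peak calls, so its errors are common to the lists. The headers do not say whether it was the IgG or the input sample, so what fold enrichment and FDR are measured against is known only as this control.

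The regions were a minority of what growing cells showed outside the quiescent list. Of 8003 regions with a growing peak and no quiescent peak, 12.3% also held an RB knockdown peak, and these are the 986. This share is set by the rule. Among regions with both a growing and a quiescent peak, 85.8% (1191 of 1388, 95% exact binomial interval 83.9% to 87.6%) also held an RB knockdown peak. Intervals here and below cover counting error only.

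Growing peaks with more tags were more often shared with the RB knockdown list. Of growing peaks with fewer than 20 tags, 1.82% lay in the 986 regions (1.39% to 2.35%, 59 of 3233), 0.650% lay in regions common to all 3 lists, and 96.8% were in the growing list alone. At 30 to 39 tags the shares were 15.7% (13.7% to 17.9%), 13.1% and 66.9%. At 60 to 99 tags they were 31.6% (28.1% to 35.3%), 57.5% and 8.53%. At 100 tags or more the share in the 986 regions was 25.9% (21.8% to 30.3%), while that in regions common to the 3 lists reached 68.1%. Below 30 tags a larger share lay in the 986 regions than in common regions, and from 60 tags up a larger share lay in common regions. Between these bounds the intervals of both classes overlapped. Overlap with the RB knockdown list also moved with the width of the growing peak, from 1.98% in the 986 regions below 600 bp to 31.3% at 2000 bp and over. The part of width in these shares was not tested.

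**Figure D1:**
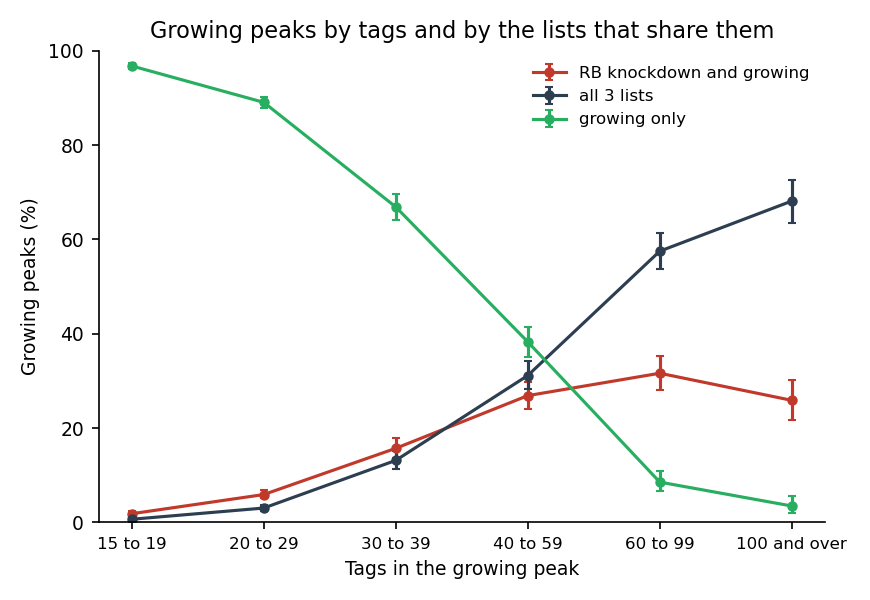
Share of growing peaks (%, y axis) by the number of tags in the peak (x axis) that lay in the 986 regions with an RB knockdown peak, in regions common to all 3 lists, or in the growing list alone, with 95% exact binomial intervals. The share in the 986 regions went from 1.82% in the lowest bin to 31.6% at 60 to 99 tags, and was 25.9% at 100 tags or more.

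By tags, the peaks in these regions stood in both lists between those common to all 3 states and those called in 1 state. RB knockdown peaks in the 986 regions had a median of 44 tags (quartiles 26 and 78.5) and a median fold enrichment over local background of 7.56. Those in regions common to the 3 lists had 74 tags and 9.46-fold enrichment, those shared with the quiescent list alone had 55 tags and 8.03-fold, and those in the RB knockdown list alone had 35 tags and 6.98-fold. Growing peaks in the 986 regions had a median of 44 tags (quartiles 30 and 68), against 64 tags in common regions and 20 tags in growing-only regions. Their fold enrichment did not follow the tags. It had a median of 5.47 in the 986 regions, 5.77 in common regions and 6.56 in growing-only regions. Growing peaks in the 986 regions were wide, with a median of 1132 bp against 645 bp for growing-only peaks, and of these 3 classes of growing peak the one with the narrowest peaks had the highest median fold enrichment. Each peak's tags, width and fold enrichment are as the authors deposited them. Because overlap depends on width, they are not independent of how the regions were chosen.

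**Figure D2:**
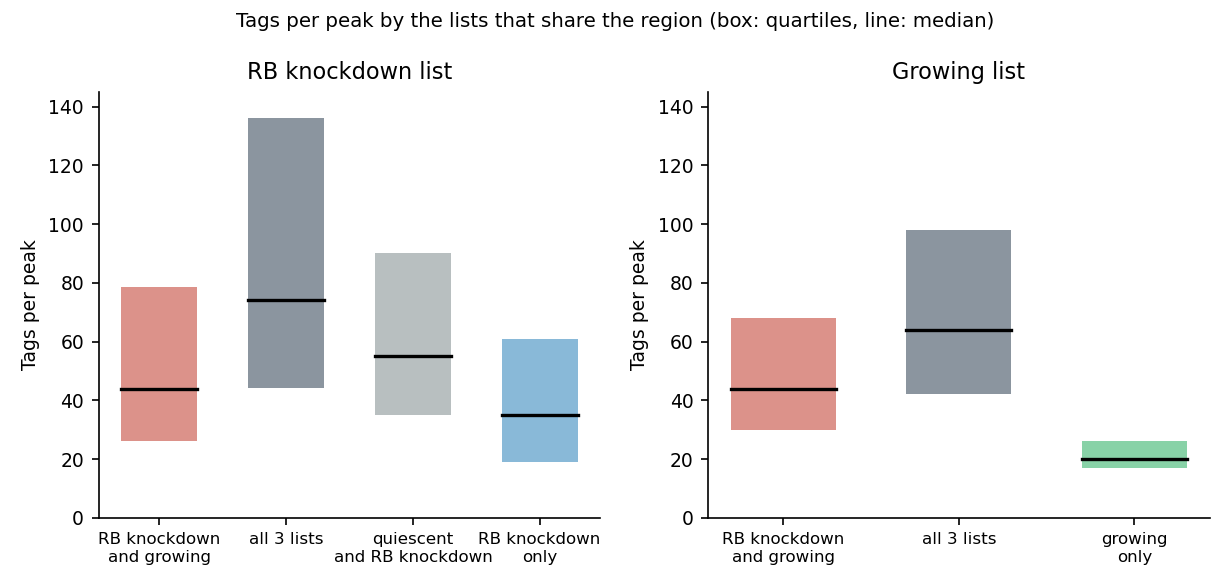
Tags per peak (y axis) in the RB knockdown list (left panel) and the growing list (right panel), by the lists that share the region. Boxes span the quartiles and black lines mark the medians. The median in the regions with an RB knockdown and a growing peak was 44 tags in either list, below that of regions in all 3 lists and above that of regions in 1 list.

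Past the stricter thresholds the RB knockdown peaks of these regions exceeded their own list by p and by fold enrichment, and the growing peaks by p alone. A -10*log10 p of at least 100 was met by 47.2% of the RB knockdown peaks in the 986 regions (513 of 1087, 44.2% to 50.2%), against 28.6% of all RB knockdown peaks. A fold enrichment of at least 10 was met by 21.5% (234 peaks, 19.1% to 24.1%), against 14.5% of the whole list. For growing peaks the first threshold was met by 14.2% (142 of 1003, 12.1% to 16.5%), against 8.75% of the whole list. The second was met by 1.79% (18 peaks), against 2.28% of the whole list. The caller's false discovery rate (FDR), a percent it derives by exchanging ChIP and control, was at most 5% for 98.4% of the RB knockdown peaks in the regions and for 98.0% of that list. It was at most 5% for 1.79% of the growing peaks in the regions (18 peaks) and for 1.83% of that list. The shares past these FDR cutoffs, and the growing share past 10-fold enrichment, were near those of the whole lists. The median FDR of the growing peaks in the regions was 72.7%.

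The regions fell into 4 groups by the strength of their best peak in each list. A -10*log10 p of at least 100 was reached in both lists by 88 regions (8.92%), in the RB knockdown list alone by 400 (40.6%), in the growing list alone by 53 (5.38%) and in neither by 445 (45.1%). The 88 regions strong in both had a median of 100 RB knockdown tags and 96 growing tags over a median length of 2156 bp. The 445 weak in both had 27 and 33 tags over 1061 bp. The 53 strong in the growing list alone had 26 RB knockdown tags against 52 growing tags, and their RB knockdown peaks had a median width of 569 bp against 1305 bp for their growing peaks. A quiescent peak lay within 10 kb of 34.1% of the regions strong in both lists (24.3% to 45.0%). In the other 3 groups the share was 21.6% to 22.6%, and each of their intervals overlapped that of the regions strong in both.

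Most regions paired 1 peak with 1 peak, and peaks of a pair were more alike in tags than in enrichment. In 887 regions (90.0%) there was 1 peak of each list, 92 regions held more than 1 RB knockdown peak and 13 held more than 1 growing peak. Across the 887 pairs Spearman's rho between the lists was 0.74 for tags, 0.64 for width and 0.22 for fold enrichment. These are correlations across regions, which share the 2 libraries, the control and the width of the locus, and are given as a description. Tag density (tags per kb of peak per 1000000 filtered tags) had a median of 2.33 in the RB knockdown peaks and 1.68 in the growing peaks of these pairs. The ratio of RB knockdown to growing had a median of 1.39 (quartiles 1.22 and 1.66), and a median of 1.59 in the 916 such pairs of regions common to all 3 lists. The RB knockdown peak was the narrower one in 82.3% of pairs, with a median of 734 bp against 1083 bp for the growing peak. The fragment length used by the caller was 125 bp for RB knockdown and 200 bp for growing cells, and its part in these widths and densities was not tested.

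**Figure D3:**
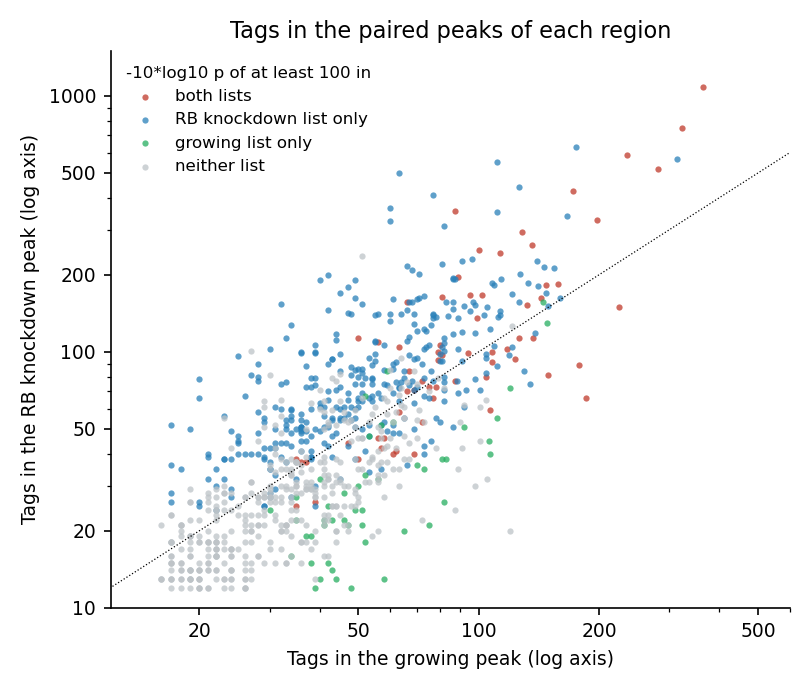
Tags in the RB knockdown peak (y axis, log scale) against tags in the growing peak (x axis, log scale) for the 887 regions with 1 peak of each list. Colours show in which list the peak reached a -10*log10 p of at least 100, and the dotted line marks equal tags. Tags of the 2 lists moved together (Spearman's rho 0.74 across regions).

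Among the regions described here, 12 leaders had the lowest sums of within-list ranks of -10*log10 p. These leaders held 106 to 1082 RB knockdown tags and 50 to 380 growing tags in their best peaks. They did not lead the whole lists. Their best peaks ranked 30 to 420 in the RB knockdown list and 59 to 368 in the growing list. The top peak of either list lay in a region common to every list. All 12 had an RB knockdown FDR of 0%, while their growing FDR ran from 0% to 22.8%. Coordinates are of hg18. The first was chr5:172124096-172132681, 8586 bp long, with 767 RB knockdown tags at 11.5-fold enrichment and 380 growing tags at 4.88-fold. It held 2 RB knockdown peaks, and the nearest summits of the 2 lists lay 1618 bp apart. The second, chr12:6511291-6516304, had 519 RB knockdown tags and 281 growing tags. A quiescent peak lay 197 bp from it.

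Long blocks and short tall peaks were mixed among these leaders. At chr7:130243664-130249975 there were 1082 RB knockdown tags and 363 growing tags over 6312 bp, and a further leader lay before it on the same chromosome, at chr7:130200246-130204705, with 585 and 235 tags. The region chr10:63481362-63489086 had 748 RB knockdown tags and 323 growing tags over 7725 bp. On chromosome X the region chrX:45486813-45490913 had 425 RB knockdown tags at 13.2-fold and 172 growing tags at 4.43-fold. In the 6 leaders at least 4101 bp long the growing peak had 4.43-fold to 5.17-fold enrichment.

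The short leaders were taller. At chr17:20942573-20943781 the RB knockdown peak had 164 tags at 31.5-fold enrichment and the growing peak 81 tags at 12.5-fold, with summits 7 bp apart. The region chr1:23729520-23731260 had 135 RB knockdown tags at 30.9-fold and 99 growing tags at 12.8-fold, with the growing FDR at 0%. At chr7:148212158-148213223 there were 113 RB knockdown tags at 29.1-fold and 50 growing tags at 11.7-fold, with summits 33 bp apart. On chromosome 15 the leaders were chr15:38773695-38775556, with 250 RB knockdown tags at 24.5-fold and 100 growing tags at 5.86-fold, and chr15:41906097-41907820, with 106 tags at 25.2-fold and 80 tags at 8.02-fold. On chromosome 19, chr19:10165199-10167242 had 294 RB knockdown tags at 16.5-fold and 128 growing tags at 5.47-fold, with summits 45 bp apart. In 6 of the 12 leaders the summits lay within 200 bp, and in 2 of the 12 a quiescent peak lay within 10 kb.

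The growing peaks that met the tallest RB knockdown peaks in these regions ranged from 4.31-fold to 10.2-fold enrichment, around the median of 5.47 for growing peaks in the regions. The highest, at chr16:87397086-87398181, had 199 RB knockdown tags at 90.1-fold enrichment and 42 growing tags at 10.2-fold, with summits 29 bp apart. The others were chr11:523151-525132 (365 RB knockdown tags at 49.8-fold and 60 growing tags at 4.31-fold), chr11:63498190-63499273 (44.6-fold and 6.43-fold), chr10:13242955-13244190 (40.7-fold and 5.58-fold) and chr11:65435439-65437575 (39.8-fold and 4.55-fold). Growing peaks in these 5 had 32 to 60 tags and FDRs from 57.4% to 75.1%. At chr11:523151-525132 the 2 summits lay 6 bp apart although the growing peak ranked 4446th in its list.

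The tallest growing peaks here mostly met tall RB knockdown peaks. The highest was at chr3:17418245-17418828, with 38 RB knockdown tags at 20.4-fold and 35 growing tags at 16.1-fold, and a growing FDR of 5.59%. The next, chr19:1992498-1993622, was weaker in the other list, with 22 RB knockdown tags at 9.24-fold and 41 growing tags at 13.1-fold. The regions on chromosomes 1 and 17 named above came next, followed by chr7:21951810-21952725, with 61 RB knockdown tags at 16.7-fold and 31 growing tags at 11.9-fold, summits 23 bp apart. In all, 18 regions had a best growing peak of at least 10-fold enrichment. In 13 of these the best RB knockdown peak was at least 10-fold too (72.2%, 46.5% to 90.3%). Of all 1087 RB knockdown peaks in the 986 regions, best of their region or not, 21.5% were. In 14 the summits lay within 200 bp (77.8%, 52.4% to 93.6%), against 51.0% of all 986 regions. In 5 the growing FDR was at most 5%. These 18 regions had a median length of 1054.5 bp, against 1326 bp over all 986, and the part of length in the summit distances was not tested. Their median summit distance was 47.5 bp, against 193 bp over all 986 regions.

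The summits of the 2 lists lay close in about as many regions as not. Within the 986 regions 18.5% of nearest summit pairs lay within 50 bp (16.1% to 21.0%), 51.0% within 200 bp (47.8% to 54.2%) and 95.6% within 1000 bp. The rule bounds these distances, because it requires the peaks to overlap. Median widths in the 887 pairs were 734 bp (RB knockdown) and 1083 bp (growing), so few summits could lie beyond 1000 bp. Regions common to the 3 lists had 22.5%, 60.3% (57.4% to 63.1%) and 94.5% for the same distances between RB knockdown and growing summits. The intervals at 200 bp did not overlap, and those at 1000 bp did. The peaks themselves also overlapped less fully than in common regions. Reciprocal overlap of at least 50% was met by 59.9% of the 986 regions (56.8% to 63.0%) and by 72.3% of the common ones (69.7% to 74.8%). A region with several peaks was scored by its nearest summits and its fullest overlap. More than 1 RB knockdown peak was held by 21.7% of common regions and by 9.33% of the 986. Growing peaks were also wider in common regions, with medians of 1408 bp against 1132 bp. The part of peak number and width in these differences was not tested. The RB knockdown peak lay wholly inside the growing peak in 42.1% of the 887 pairs.

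**Figure D4:**
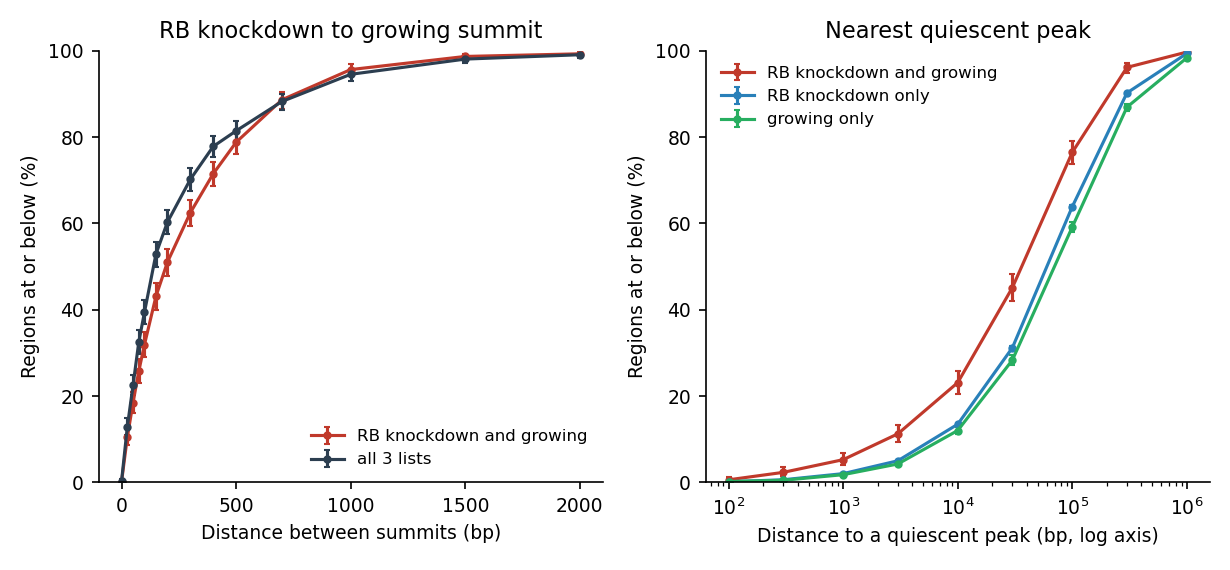
Cumulative share of regions (%, y axes) by distance in bp between the nearest RB knockdown and growing summits (left panel) and by distance in bp to the nearest quiescent peak on a log axis (right panel), with 95% exact binomial intervals. By these curves 51.0% of the 986 regions had summits within 200 bp, and 23.1% had a quiescent peak within 10 kb. The overlap rule bounds the summit distances.

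The quiescent list often had a peak nearby. The nearest quiescent peak lay at a median of 37736 bp from the 986 regions, against 61970 bp from RB-knockdown-only and 72909 bp from growing-only regions. Within 10 kb there was one for 23.1% of the 986 regions (20.5% to 25.9%), against 13.5% (13.1% to 13.8%) of RB-knockdown-only and 12.03% (11.3% to 12.8%) of growing-only regions. Within 1 kb the shares were 5.27% (52 regions), 2.04% and 1.80%. Regions of the 3 classes differ in length, with medians of 1326, 619 and 645 bp, and in chromosome. On chromosomes other than 16, 17, 19 and 22 the shares within 10 kb were 21.2% (18.2% to 24.3%), 12.7% and 10.9%.

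Regions common to all 3 states lay near the 986 regions more often than near regions of 1 list or near those shared by quiescent and RB knockdown cells, and about as often as near those shared by growing and quiescent cells. A common region lay within 50 kb of 22.2% of the 986 (19.7% to 24.9%, 219 regions), of 10.6% of regions shared by quiescent and RB knockdown cells (9.71% to 11.6%), of 8.84% of RB-knockdown-only regions, of 7.35% of quiescent-only regions and of 8.84% of growing-only regions. For the 197 regions shared by growing and quiescent cells the share was 24.4% (18.5% to 31.0%), an interval that holds the value of the 986. On chromosomes 16, 17, 19 and 22 the share was 33.1% for the 986 regions (27.4% to 39.1%), against 22.7% for those of quiescent and RB knockdown cells, 19.2% for RB-knockdown-only, 17.8% for quiescent-only, 17.4% for growing-only, and 39.5% (24.98% to 55.6%) for those of growing and quiescent cells. On the other chromosomes it was 18.3% for the 986 regions (15.5% to 21.3%), against 8.70%, 7.45%, 6.05%, 7.16% and 20.1% (14.1% to 27.3%) for the same classes in that order. In both sets of chromosomes the 986 regions thus stood above 4 of the classes, and their interval overlapped that of regions shared by growing and quiescent cells. Neighbouring regions are not independent, and no test was made.

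The 986 regions lay on a few chromosomes more often than other regions of the RB knockdown list did, except those common to the 3 lists. Chromosomes 16, 17, 19 and 22, which are known as gene-rich and were grouped with earlier results of these lists in view, made up 9.30% of the sequence spanned. They held 26.7% of the 986 regions (263 regions, 23.9% to 29.6%) and 25.2% of the regions common to all 3 lists (22.7% to 27.8%). They held 13.6% of regions shared by quiescent and RB knockdown cells (12.6% to 14.6%), 11.8% of RB-knockdown-only regions (11.5% to 12.1%) and 16.3% of growing-only regions (15.4% to 17.1%). Of the 197 regions shared by growing and quiescent cells they held 21.8% (16.3% to 28.3%). Chromosome 17 alone held 100 of the 986 regions (10.1%, or 1.27 per Mb) and chromosome 19 held 82 (8.32%, or 1.29 per Mb), against 0.327 per Mb over all chromosomes. The sparsest were chromosome 13, with 8 regions (0.0701 per Mb), chromosome 4, with 23 (0.120 per Mb), and chromosome X, with 19 (0.123 per Mb). Other classes were sparse there too. Divided by the share of sequence spanned, the share on chromosomes 13, 4 and X was 0.215, 0.368 and 0.377 for the 986 regions. It was 0.400, 0.464 and 0.493 for common regions, 0.733, 0.799 and 0.384 for RB-knockdown-only regions, and 0.698, 0.687 and 0.667 for growing-only regions.

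**Figure D5:**
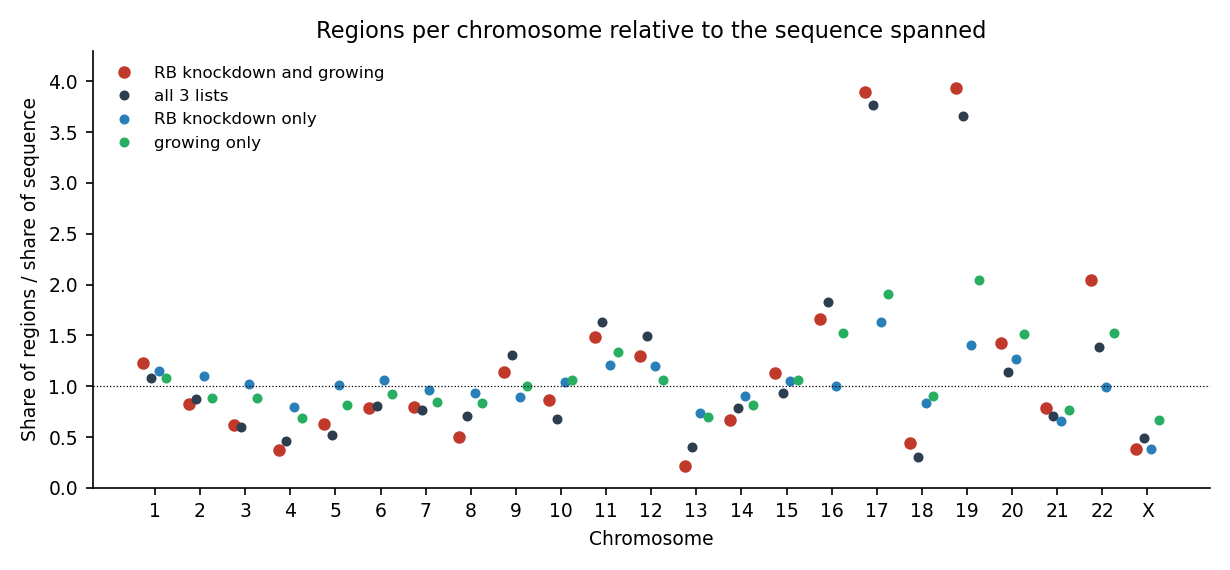
Share of regions on each chromosome divided by its share of the sequence spanned (y axis), for chromosomes 1 to 22 and X (x axis), by the lists that share the region. The dotted line marks equal shares. On chromosomes 17 and 19 the 986 regions and the regions in all 3 lists lie above those in 1 list.

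The chromosome share held at each level of RB knockdown tags, in the 986 regions and in common regions alike. Among RB knockdown peaks of fewer than 30 tags, 25.4% of those in the 986 regions lay on the 4 chromosomes (20.8% to 30.3%), against 15.1% of those shared with the quiescent list alone and 11.8% of those in the RB knockdown list alone. At 30 to 59 tags the shares were 28.5% (23.8% to 33.6%), 13.8% and 11.9%, and at 60 tags or more they were 26.2% (21.9% to 30.8%), 13.2% and 11.7%. RB knockdown peaks in common regions had 29.1%, 29.6% and 25.1% in these bins, with intervals that overlapped those of the 986 regions. Split by growing tags instead, the intervals of the 986 regions and of growing-only peaks were apart in the lowest bin alone. Below 30 tags 23.9% of growing peaks in the 986 regions lay there (18.6% to 29.9%), against 14.8% of growing-only peaks (13.9% to 15.7%). At 30 to 59 tags the shares were 27.8% (23.7% to 32.3%, 442 peaks in the regions) and 22.6% (20.2% to 25.1%). At 60 tags or more the shares were 26.9% (22.2% to 32.1%) and 30.1% (19.9% to 42.0%, 73 growing-only peaks). Growing peaks in common regions had 22.5%, 23.9% and 27.4% in these bins, again with intervals that overlapped those of the 986 regions.

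Most of the regions had no other of the 986 within 50 kb. Another of the 986 lay within 50 kb of 20.1% of them (17.6% to 22.7%), and 788 stood alone at that distance. The same share within its own class was 30.5% for common regions, 31.8% for those of quiescent and RB knockdown cells and 12.2% for those of growing and quiescent cells. It was 85.7% for RB-knockdown-only, 28.9% for quiescent-only and 35.3% for growing-only regions. The classes differ in number of regions, and whether the 986 lay closer together than even placement would give was not tested. The longest run, with each region within 50 kb of the next, was 6 regions over 65.6 kb at chr2:237912646-237978205, with 31 to 144 RB knockdown tags and 27 to 154 growing tags. Runs of 4 regions lay at chr17:77088480-77115450, at chr11:65379626-65437575 and at chr17:7048318-7127714. These runs were singled out after their values were seen. Within 1 Mb of the outermost peak of a chromosome there were 49 of the 986 regions (4.97%, 3.70% to 6.52%), against 6.05% of the regions common to the 3 lists (4.76% to 7.55%). The share was 2.22% for RB-knockdown-only, 3.72% for quiescent-only and 4.15% for growing-only regions. For regions of quiescent and RB knockdown cells it was 2.88%, and for those of growing and quiescent cells 8.63% (5.11% to 13.5%).

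The lengths of the regions ran from 460 to 13824 bp, and 64 were at least 3000 bp long. The longest, chr7:93887824-93901647, held a single RB knockdown peak of 1585 tags and 4 growing peaks, the strongest with 324 tags. The next, chr17:44000643-44010261, held 2 RB knockdown and 3 growing peaks and lay 766 bp from a quiescent peak. The shortest were chr2:219171511-219171970, with 14 RB knockdown and 20 growing tags, chr6:32054981-32055487, with 12 and 17, and chr15:77021140-77021648, with 16 and 17. The growing FDR of these short regions was 68.0%, 72.9% and 76.7% in the same order.

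At the quiescent edge of the rule the RB knockdown and growing tags on either side overlapped in range. The regions nearest to a quiescent peak without touching it were chr17:39542395-39545833, 31 bp away with 75 RB knockdown and 134 growing tags, chr2:156907168-156908080, 51 bp away with 26 and 30 tags, and chr17:77088480-77089950, 52 bp away with 114 and 67 tags. The regions left out by the smallest quiescent overlap, of 108, 168 and 379 bp, held 35, 34 and 14 RB knockdown tags, 42, 22 and 25 quiescent tags and 67, 34 and 17 growing tags. The smallest overlaps between RB knockdown and growing peaks inside the rule were 7 bp at chr10:88720619-88723185, 12 bp at chr22:22642640-22644053 and 13 bp at chr19:10241972-10243127, where the growing peaks had 34, 33 and 22 tags. Growing peaks that missed an RB knockdown peak by 1, 3 and 6 bp had 39, 70 and 38 tags, all above those 3.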

How the data were processed

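Bowtie and the hg18 build are named in the submitters' processing notes, and Bowtie's version is not given in the sources used here. The authors ran MACS 1.4.1 on each library alone against 1 common control, at a p cutoff of 1e-05, keeping at most 2 tags per position, per the file headers. The fragment length d was 125 bp for RB knockdown and 200 bp for quiescent and growing. Each deposited peak has a tag count, a score of -10*log10 p, a linear fold enrichment ratio and an FDR in percent, per the file headers.

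Peaks were merged with Python 3.11.15 and pandas 2.3.3, and the merging was tested on 20 simulated sets. Levels of -10*log10 p and fold enrichment were not tested between lists. Regions were sorted by the same cutoffs in each list, and ranks were correlated across regions. Shares have 95% exact (Clopper-Pearson) intervals. With 1 library per group no test was made.

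The regions and measures were chosen with earlier results of these data known. Among the kept regions, the 12 with the lowest summed within-list ranks of -10*log10 p were named. So were the 5 with the highest fold enrichment in each list, the 3 longest and the 3 shortest. The 3 nearest each edge of the rule were named too. No gene or sequence was assigned, because the annotation at hand is of GRCh38 and not of hg18. The alternatives tried were stricter thresholds, lists of equal length, stricter overlap and wider distances from quiescent peaks.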

Additional observations from a re-analysis of the deposited data

How the results depend on the processing

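No paired analysis was possible because each state has 1 library, and for the same reason no library could be left out. The number of regions followed the threshold. Requiring 100 or more in -10*log10 p of each list left 175 regions, of which 87 lay on a quiescent peak under that threshold. An FDR cutoff of 5% left 41, of which 23 did, and a 10-fold enrichment cutoff left 41, of which 28 did. With the first threshold on the RB knockdown and growing lists and the quiescent list in full there were 88 regions. Cutting each list to 9481 peaks left 421, a 50% reciprocal overlap left 591, and a summit limit of 200 bp left 503.

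In the order of these 7 settings, the median RB knockdown fold enrichment was 9.58, 9.48, 14.545, 8.83, 9.2, 8 and 8.045, and the median RB knockdown tags were 91.5, 95, 75, 99, 86.5, 55 and 40. Median growing fold enrichment moved to 6.12, 8.3, 11.21, 5.77 and 5.09 in the first 5 settings and to 5.735 in the last. Median growing tags moved to 79.5, 115, 50, 97 and 62 in the first 5. The median summit distance moved to 147 bp, 54 bp, 234.5 bp and 146 bp with the p cutoff on all lists, at 10-fold, with the quiescent list in full and with reciprocal overlap. The share of summits within 200 bp was then 58.9%, 85.4%, 47.7% and 60.7%. The median distance to a quiescent peak was 88518, 340771, 809834 and 24397.5 bp in the first 4 settings, where the first 3 left fewer quiescent peaks. The share on chromosomes 16, 17, 19 and 22 moved to 21.95% at 10-fold (10.6% to 37.6%) and 20.5% with the quiescent list in full (12.6% to 30.4%). With reciprocal overlap it was 29.9% (26.3% to 33.8%). Each of these intervals held the 26.7% of the 986 regions. The share with another region within 50 kb was 8.57%, 4.88%, 0% (0 of 41, upper limit 8.60%), 5.68%, 14.3%, 14.7% and 9.94%, in sets of fewer regions, and 14.5% with no quiescent peak within 10 kb. For the other values the cause was not tested. Leaving out regions within 1 kb of a quiescent peak kept 934 regions, and no value moved beyond its interval. The summit limit fixes the summit results and a distance limit fixes the distance to quiescent peaks, so these were not recomputed there. The shared control and 1 library per state limit all values, and the intervals cover counting error alone.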

Other observations

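The 1 Mb window with the most of these regions was found on chromosome 11, from 65000000 to 65999999 in hg18, and was singled out after its values were seen. It held 9 of the 986 regions, with 30 to 579 RB knockdown tags and 46 to 402 growing tags in their best peaks. Growing fold enrichment there was low, from 3.60 to 6.05, and RB knockdown fold enrichment ran from 4.68 to 39.8. The nearest quiescent peak lay between 1915 and 41604 bp away. The region with the most growing tags among these, chr11:65411496-65418715, had 579 RB knockdown tags and 402 growing tags over 7220 bp, and only 649 bp separated it from the next, chr11:65419365-65424168, with 193 RB knockdown tags and 159 growing tags. Windows on chromosomes 6, 9 and 17 held 7 regions each.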
